A study of Mus musculus with 8 samples.

Results

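Interferon response genes were compared between the hearts of female and male mice at 2 ages. They were chosen by name: every row of the table whose gene symbol begins with Ifi, Irf and a digit, Isg, Oas, Gbp, Stat, Ifn, Irgm, Iigp, Igtp, Tgtp or Socs, or is Mx1, Mx2, Rsad2, Usp18, Bst2, Xaf1 or Eif2ak2. The rule uses symbols alone. It gave 41 genes on 47 rows, of 6110 named genes on 6675 rows, and 6 of the genes had 2 rows each. Another 4 rows annotated to several genes were left out. By role there were 3 interferon receptors, 3 Stat signal transducers, 7 Irf transcription factors, 11 genes induced mainly by type I interferon, 7 induced mainly by interferon gamma and 7 Socs inhibitors. The remaining members were Irf2bp2 and Irf2bpl, which encode proteins related to an Irf2 binding partner, and Ifngas1, an antisense RNA beside the gene of interferon gamma. No row was named for an interferon itself, so the ligands were not analysed here.

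The animals were C57BL/6 mice, an inbred laboratory strain, and no treatment or altered allele is given in the labels for either sex. Total RNA from whole hearts was pooled by sex and age, with 6 hearts in each of 4 pools: females and males of 2 months, and females and males of 8 months. Each of 8 two-colour cDNA arrays compared the female with the male pool of 1 age, with 4 arrays per age and the dyes exchanged on replicates 2 and 4. The 4 arrays of an age are technical repeats of 1 pair of pools, so their SD describes the measurement and not the animals.

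Values are log2 ratios of the female over the male pool, so 1 is a doubling in females and -1 a doubling in males, and an age was summarised by averaging its dye orientations, which weigh equally. Ratios carry no expression level, and no intensities were used here, so levels cannot be compared between genes and signal over background is unknown. In RNA from a whole organ, fewer cells of a type and less RNA per cell cannot be told apart. Replicates 1 and 2 at 8 months stood apart: their ratios had an interquartile range of 1.18 and 1.56, against 0.30 to 0.46 on the other 6 arrays, and drifted along the order of the probes on the slide. For that reason 8-month medians of gene groups, and the values of single genes that rest on these arrays, are also given from replicates 3 and 4. Xist was positive and the Y-linked Eif2s3y and Kdm5d negative on all 8 arrays, as the labelled sexes require. Of 8 markers of heart muscle, 5 were negative at 2 months and 6 at 8 months, against 53.6% and 55% of all rows. Their medians were -0.051 and -0.30 (-0.095 from replicates 3 and 4), and a ratio cannot show how strongly they were expressed.

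Interferons are secreted proteins that signal infection and tissue damage. Type I interferons bind the Ifnar1 and Ifnar2 receptor chains and act through Irf9 and its partners on a DNA element called ISRE, which turns on antiviral genes such as Oas1a, Rsad2 and Isg15. Interferon gamma binds the Ifngr1 and Ifngr2 chains and acts on another element, GAS, and through Irf proteins also on ISRE elements, which turns on the immunity-related GTPases Iigp1, Tgtp1, Igtp, Irgm1 and Irgm2 and the guanylate-binding proteins. Socs1 and Socs3, themselves induced by cytokines, inhibit the Jak kinases and so damp both pathways. Many genes respond to both kinds of interferon, and the split into type I and gamma follows the stronger known inducer.

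Promoter sequences are shown first because they were searched for the ISRE and GAS elements named above. RefSeq promoter windows of assembly GRCm38.p6, from 250 bases before to 50 bases after the annotated start site, were found for 35 of the 41 genes. They were searched on both strands for an ISRE-type motif, GAAANNGAAA, and for a GAS-type motif, TTCNNNGAA, where N is any base. The GAS-type motif reads the same on both strands, and no match of one motif shared bases with a match of the other in these 35 genes. The 6 sequences below are the 250 bases before the start site, 5′ to 3′ on the strand of the gene, with motif matches in capitals: Tgtp1 (chr11:48992247-48992496, minus strand) and Irgm2 (chr11:58214727-58214976, plus strand) stand for the gamma genes, Oas1a (chr5:120907526-120907775, minus strand), Rsad2 (chr12:26456453-26456702, minus strand) and Isg15 (chr4:156200819-156201068, minus strand) for the type I genes, and Socs1 (chr16:10785537-10785786, minus strand) for the inhibitors.
Tgtp1: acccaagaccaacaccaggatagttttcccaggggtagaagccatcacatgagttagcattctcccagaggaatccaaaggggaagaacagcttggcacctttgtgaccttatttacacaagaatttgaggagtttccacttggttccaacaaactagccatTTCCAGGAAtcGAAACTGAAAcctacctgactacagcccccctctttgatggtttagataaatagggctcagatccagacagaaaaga
Irgm2: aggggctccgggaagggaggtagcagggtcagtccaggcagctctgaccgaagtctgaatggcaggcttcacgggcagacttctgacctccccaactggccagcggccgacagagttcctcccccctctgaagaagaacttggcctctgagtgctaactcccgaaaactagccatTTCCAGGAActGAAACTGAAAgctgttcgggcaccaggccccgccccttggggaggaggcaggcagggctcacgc
Oas1a: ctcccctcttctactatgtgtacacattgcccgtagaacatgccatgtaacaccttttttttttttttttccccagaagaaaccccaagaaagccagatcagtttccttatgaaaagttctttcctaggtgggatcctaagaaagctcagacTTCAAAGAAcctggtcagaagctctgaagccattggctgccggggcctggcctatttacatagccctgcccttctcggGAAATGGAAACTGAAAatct
Rsad2: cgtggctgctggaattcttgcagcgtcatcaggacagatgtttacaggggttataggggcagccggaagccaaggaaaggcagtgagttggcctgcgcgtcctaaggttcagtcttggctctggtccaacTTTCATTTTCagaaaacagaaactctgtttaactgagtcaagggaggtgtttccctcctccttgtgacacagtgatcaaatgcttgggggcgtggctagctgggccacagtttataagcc
Isg15: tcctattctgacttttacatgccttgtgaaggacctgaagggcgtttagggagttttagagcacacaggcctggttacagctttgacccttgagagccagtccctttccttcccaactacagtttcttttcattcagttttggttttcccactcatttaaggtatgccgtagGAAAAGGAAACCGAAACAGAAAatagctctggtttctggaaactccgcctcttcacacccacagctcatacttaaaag
Socs1: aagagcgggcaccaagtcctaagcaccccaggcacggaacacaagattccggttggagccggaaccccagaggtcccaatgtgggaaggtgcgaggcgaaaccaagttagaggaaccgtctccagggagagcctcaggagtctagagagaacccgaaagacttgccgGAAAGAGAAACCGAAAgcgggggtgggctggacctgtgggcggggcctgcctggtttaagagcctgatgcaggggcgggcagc

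An ISRE-type match was present in 6 of 6 gamma genes with a window and in 7 of 10 type I genes, and in 16 of the 35 members, against 3.99% of 27025 genes with a window. A GAS-type match was present in 4 of 6 gamma genes, 3 of 10 type I genes and 12 of 35 members, against 9.55% of all genes. Each motif thus occurred in both groups, and Iigp1 had no window. In Tgtp1 and Irgm2 the capitals show both: a GAS-type match begins at position -88 and -75 from the start site, and an ISRE-type match begins 11 bases further on. Igtp has the same arrangement, at -45 and -34. Of all 32851 windows only 5 held this spacing, those of Igtp, Irgm2, Tgtp1, Tgtp2 and Gm12185, all on chromosome 11, and the spacing was picked out after the sequences had been seen. Oas1a has 2 overlapping ISRE-type matches close to its start site and a GAS-type match further up, Isg15 has 3 overlapping ISRE-type matches, and Rsad2 has 1 on the opposite strand. Socs1 carries 2 overlapping ISRE-type matches. A match describes letters in this window and is not evidence of binding in these hearts.

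**Figure D1:**
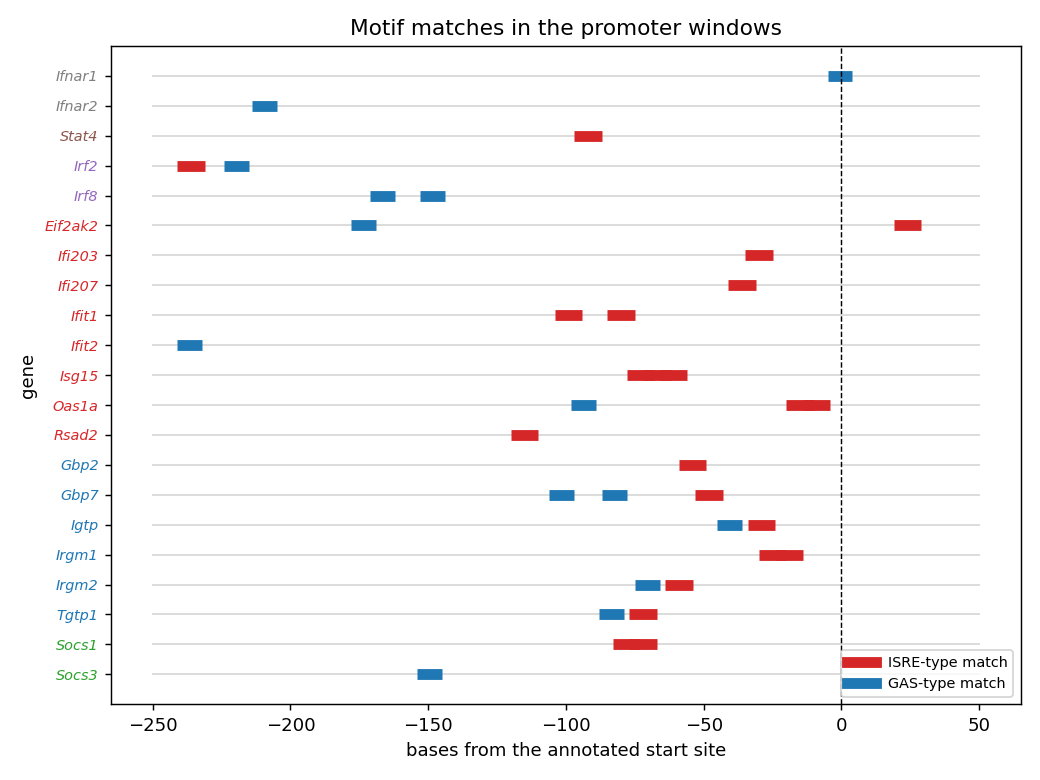
Positions of ISRE-type (red) and GAS-type (blue) motif matches in bases from the annotated start site (dashed line), for the interferon genes with at least 1 match. Matches lie before the start site in nearly all genes, and Tgtp1, Igtp and Irgm2 share a GAS-type match 11 bases before an ISRE-type match.

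Over both ages no interferon gene passed the test of the sex difference. The test was limma on the pair of age values (n = 2 pairs of pools, 1 residual degree of freedom, adjusted over all 7812 rows tested), which called 7 rows, or 0.0896%, and 0 of the 39 members tested. At an unadjusted p below 0.05 the test took 6 members (Iigp1, Tgtp1, Irgm2, Socs1, Stat4 and Irf2bp2), and 10.4% of all rows. The lowest adjusted p among members was that of Iigp1, at 0.193. A single age has 1 pair of pools and so no test across animals, and genes are listed there by size: at least 1.5-fold, with the same sign on all arrays of that age. At 2 months this rule took 2 of 39 members, and 4.17% of all rows: Iigp1 was lower in females, as 1.77% of rows were, and Socs1 higher, as 2.41% were. At 8 months it took Ifi207 and Socs3, and 2.98% of all rows, and both were higher in females, as 1.68% of rows were. These shares of the members are close to those of all rows. The genes taken at 8 months moved with single arrays: Iigp1, Irf7, Socs3 and Tgtp1 without replicate 1, Usp18 alone without replicate 2, and 5 genes (Gbp2, Ifi207, Irf2bp2, Rsad2 and Socs3) without replicate 4. With the drift along the probe order removed, the rule took Iigp1 (at -0.70) and Socs3, and Ifi207 (at 0.52) no longer met it. The same sign on all arrays was found in 17 of 39 members at 2 months, against 35.8% of all rows, with 13 negative (18.1% of all rows) and 4 positive (17.7%). At 8 months it was found in 8 members, against 10.6%, with 7 positive (5.79%) and 1 negative (4.85%). The arrays of the ages did not overlap in 6 members, against 5.93% of all rows.

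**Figure D2:**
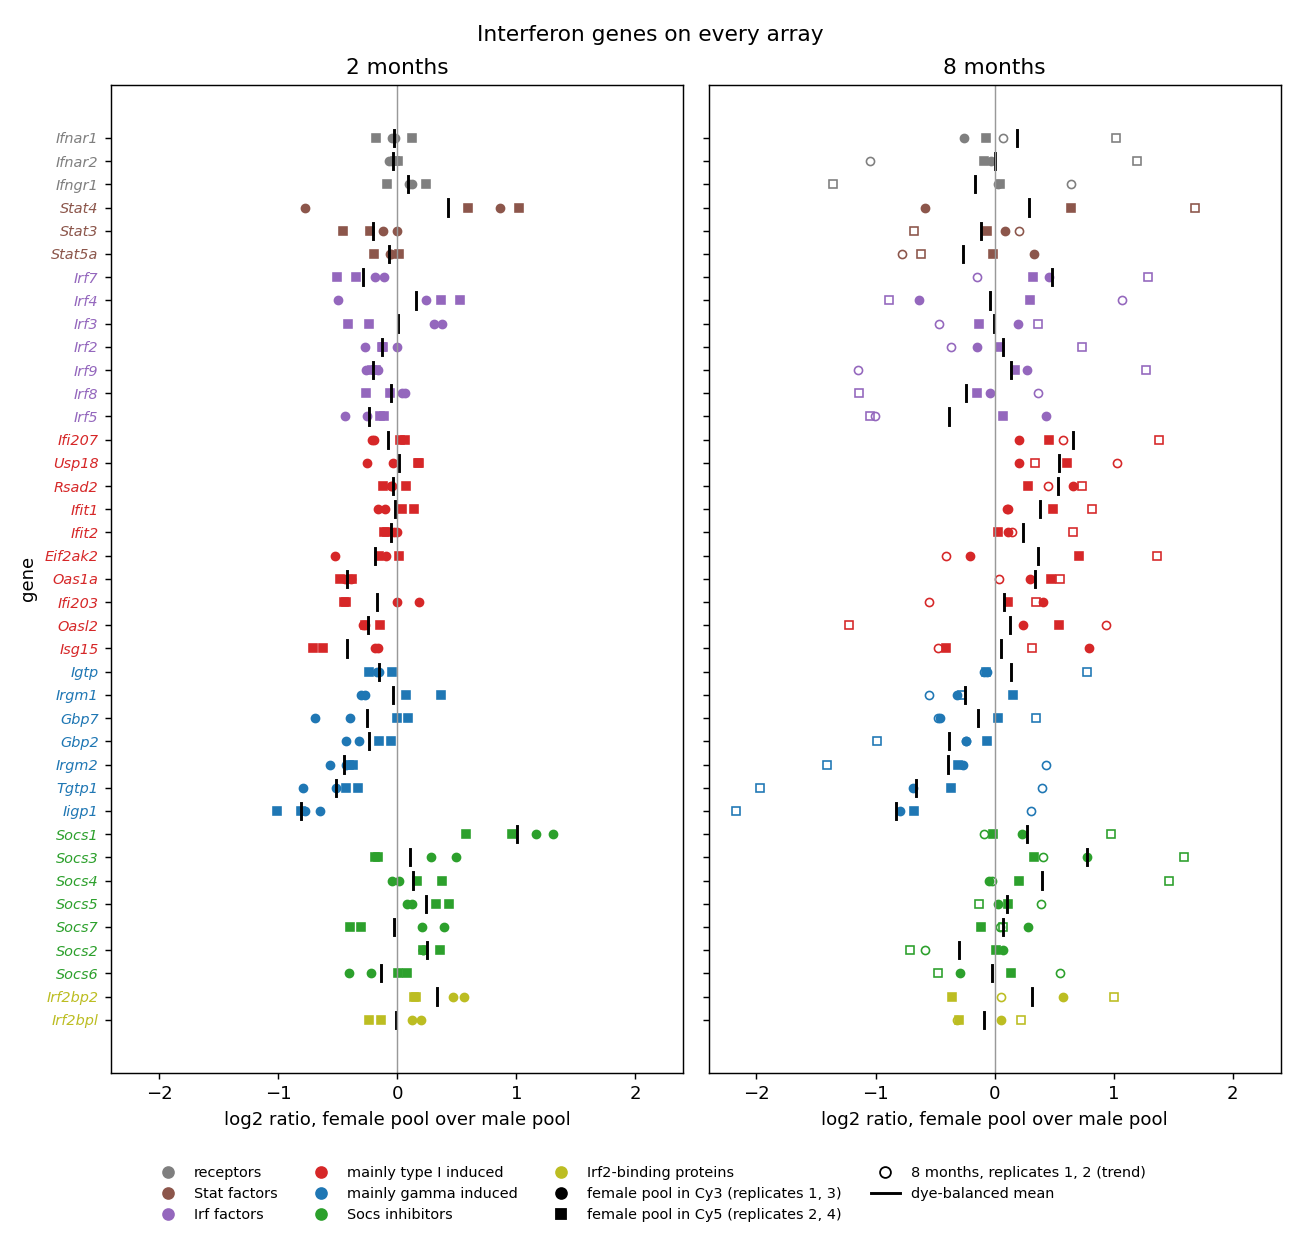
Log2 ratio of the female over the male pool for each interferon gene on every array at 2 months (left) and 8 months (right), by role, with the dye-balanced mean as a black bar. At 2 months the type I (red) and gamma (blue) genes lie mostly left of 0, and at 8 months the type I means lie right of 0 and most gamma means left of it.

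The receptors were near equal in the sexes. Ifnar1, a chain of the type I receptor, had ratios of -0.040, -0.18, -0.022 and 0.12 on replicates 1 to 4 at 2 months and of 0.073, 1.01, -0.26 and -0.072 at 8 months. Ifnar2, the other chain, read -0.045, -0.022, -0.072 and 0.0039 at 2 months and -1.05, 1.19, -0.034 and -0.086 at 8 months. Ifngr1, the ligand-binding chain for interferon gamma, read 0.12, 0.24, 0.096 and -0.086 at 2 months and 0.64, -1.36, 0.028 and 0.047 at 8 months. On the 6 arrays without the drift, every value of these receptors was between -0.26 and 0.24, with both signs in each gene. Over both ages Ifnar1 was at 0.080 (SE 0.13, limma adjusted p = 0.897). Ifnar2 was at -0.014 (SE 0.12, limma adjusted p = 0.989). Ifngr1 was at -0.034 (SE 0.13, limma adjusted p = 0.966).

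Among the Stat factors, which carry the signal from receptor to nucleus, Stat4 had the largest ratio and the widest spread. Stat4, which acts downstream of interleukin 12 and type I interferon in lymphocytes, read 0.86, 0.60, -0.78 and 1.02 at 2 months. At 8 months it had no value on replicate 1 and read 1.68, -0.58 and 0.64 on the others, so replicate 3 was negative at both ages against positive values elsewhere. Over both ages it was at 0.36 (SE 0.13, limma adjusted p = 0.437). Stat3, the transducer of interleukin 6 family cytokines, was negative on all arrays at 2 months (-0.12, -0.22, -0.0017 and -0.46) and of both signs at 8 months (0.20, -0.68, 0.086 and -0.068). Its value over both ages was -0.16 (SE 0.13, limma adjusted p = 0.753). Stat5a, which responds to growth hormone and prolactin, read -0.060, -0.20, -0.048 and 0.018 at 2 months and -0.78, -0.62, 0.33 and -0.015 at 8 months. The sign of Stat5a depended on the drifting arrays, with -0.27 from all arrays and 0.16 from replicates 3 and 4.

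The 7 Irf factors lay between -0.29 and 0.16 at 2 months, with 5 of 7 negative, against 53.6% of all rows. Irf7, the factor that amplifies the type I response and is itself induced by interferon, read -0.11, -0.35, -0.19 and -0.50 at 2 months and -0.15, 1.29, 0.45 and 0.32 at 8 months. All arrays were thus negative at 2 months and 3 of 4 positive at 8 months, the exception being a drifting array. Its means were -0.29 ± 0.17 and 0.48 ± 0.60 (SD, n = 4 arrays), a difference of 0.76 between the ages, or 0.68 with replicates 3 and 4. Irf9, a DNA-binding factor of the type I response, was negative on all arrays at 2 months, at -0.20 ± 0.043, and at 8 months read 0.27 and 0.17 on replicates 3 and 4 against -1.15 and 1.27 on the drifting arrays. Irf5, a factor of macrophages and B cells, read -0.26, -0.15, -0.44 and -0.11 at 2 months and -1.01, -1.04, 0.43 and 0.074 at 8 months. It was negative on all arrays of 2 months, while its sign at 8 months differed between the drifting and the other arrays. Irf8, which directs the development of macrophages and dendritic cells, read 0.044, -0.062, 0.062 and -0.26 at 2 months and 0.36, -1.14, -0.040 and -0.14 at 8 months, with both signs at each age. Irf2, Irf3 and Irf4 had age means between -0.13 and 0.16. Over both ages Irf5 was at -0.31 (SE 0.13, limma adjusted p = 0.48). Irf7 was at 0.095 (SE 0.20, limma adjusted p = 0.923). Irf8 was at -0.15 (SE 0.13, limma adjusted p = 0.773).

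Genes induced mainly by type I interferon were mostly slightly lower in the female than in the male pool at 2 months and higher at 8 months. At 2 months 9 of 10 tested genes had a negative mean, against 53.6% of all rows, and their median was -0.13, against -0.016 for all rows. At 8 months 10 of 10 had a positive mean, against 45% of all rows, with a median of 0.35. With replicates 3 and 4 it was again 10 of 10, against 49.6% of all rows, with a median of 0.32, and 8 of 10 were positive on both these arrays, against 24.5% of all rows. A negative mean at 2 months followed by a positive one at 8 months was found in 9 of 10, against 20.6%. The ratio was higher at 8 than at 2 months in 10 of 10 genes, against 47.1% of all rows, and with replicates 3 and 4 likewise, against 52.5%. The arrays of the ages did not overlap in 5 of these 10 genes (Oas1a, Ifit2, Rsad2, Usp18 and Ifi207), all higher at 8 months, against 3.03% of all rows. These genes are often expressed together and are not independent of each other, and the difference of the ages rests on 1 pair of pools at each age. Counts of signs by role were not among the results planned in advance. Markers of macrophages, which respond strongly to interferon, lay mostly on the same side of 0. Of these, 8 of 8 tested were negative at 2 months, against 53.6% of all rows, from -0.80 to -0.25 with a median of -0.39. At 8 months 2 of 8 were negative, against 55%, from -0.47 to 0.49 with a median of 0.23 (0.22 from replicates 3 and 4). Markers of T cells and thymocytes were instead high in the female pool of 2 months, with a median of 2.35. The part of these cell types in the ratios of the type I genes was not tested. No type I gene was called over both ages, where the limma adjusted p-values ran from 0.66 to 0.969. That test averages the ages, so values of opposite sign cancel in it, and it cannot address a change between the ages.

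Oas1a, which makes the messenger that activates RNase L against viral RNA, differed between the ages on every array. Its ratios at 2 months were -0.38, -0.38, -0.44 and -0.48, and at 8 months 0.032, 0.55, 0.30 and 0.47. All arrays were negative at 2 months and all positive at 8 months, with no overlap. The means were -0.42 ± 0.047 and 0.34 ± 0.23 (SD, n = 4 arrays), so the ratio was 0.76 higher at 8 months. Ifi207, a DNA-binding protein of the Ifi200 family, read -0.21, 0.068, -0.19 and 0.021 at 2 months and 0.57, 1.38, 0.21 and 0.46 at 8 months. It was close to 0 at 2 months and positive on every array at 8 months, where its mean was 0.66 ± 0.51, or 0.33 from replicates 3 and 4. Oas1a and Ifi207 were the only members whose ages differed by at least 1.5-fold without overlap, a rule that took 3.29% of all rows, and 1.57% with the higher ratio at 8 months as in these genes. With replicates 3 and 4 the rule took 4 members (Oas1a, Oasl2, Irf7 and Socs1), against 6.03%, and Ifi207 was not among them. Over both ages Oas1a was at -0.042 (SE 0.20, limma adjusted p = 0.969) and Ifi207 at 0.29 (SE 0.20, limma adjusted p = 0.701).

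Rsad2 encodes viperin, an enzyme that stops viral RNA synthesis, and was spotted as 2 probes that were read separately. Probe 412 gave -0.13, -0.0069, 0.056 and 0.069 at 2 months and 0.76, 1.81, 0.52 and 0.35 at 8 months. Probe 6060 gave 0.037, -0.24, -0.16 and 0.076 at 2 months and 0.14, -0.35, 0.80 and 0.20 at 8 months. Probe 412 was positive on every array at 8 months, and probe 6060 on all but replicate 2. At 2 months the probes were alike, with means of -0.0034 and -0.070, but at 8 months they differed, at 0.86 ± 0.66 and 0.20 ± 0.47 (SD, n = 4 arrays). The running median of the drift on replicate 2 was 1.25 at probe 412 and -1.002 at probe 6060. From replicates 3 and 4 alone the probes gave 0.44 and 0.50, and their order was reversed. Averaged over the probes, Rsad2 read -0.048, -0.12, -0.050 and 0.073 at 2 months and 0.45, 0.73, 0.66 and 0.28 at 8 months, a difference of 0.57 with no overlap, and over both ages 0.25 (SE 0.17, limma adjusted p = 0.71).

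Eif2ak2, the kinase PKR that stops translation in infected cells, also had 2 probes. Probe 6062 gave -0.45, -0.11, -0.83 and 0.098 at 2 months and -0.15, 1.77, -0.083 and 0.29 at 8 months. Probe 11782 gave 0.26, -0.20, -0.22 and -0.061 at 2 months and -0.67, 0.96, -0.33 and 1.12 at 8 months. Both probes had a negative mean at 2 months and a positive one at 8 months, with both signs among the arrays of each age, and the gene was at -0.19 and 0.36 (0.25 from replicates 3 and 4). Ifi203, a relative of Ifi207, gave 0.75, -0.78, 0.51 and -0.73 at 2 months and -1.66, 1.55, 0.78 and -0.14 at 8 months on probe 376. On probe 5401 it gave -0.38, -0.12, -0.51 and -0.13 at 2 months and 0.55, -0.87, 0.038 and 0.36 at 8 months. Probe 376 followed the dye at 2 months, positive where the female pool carried Cy3 and negative where it carried Cy5. The gene was at -0.17 at 2 months and 0.077 at 8 months (0.26 from replicates 3 and 4). Ifi203 and Ifi207 belong to a family of similar genes, and a cDNA spot may not separate them.

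**Figure D3:**
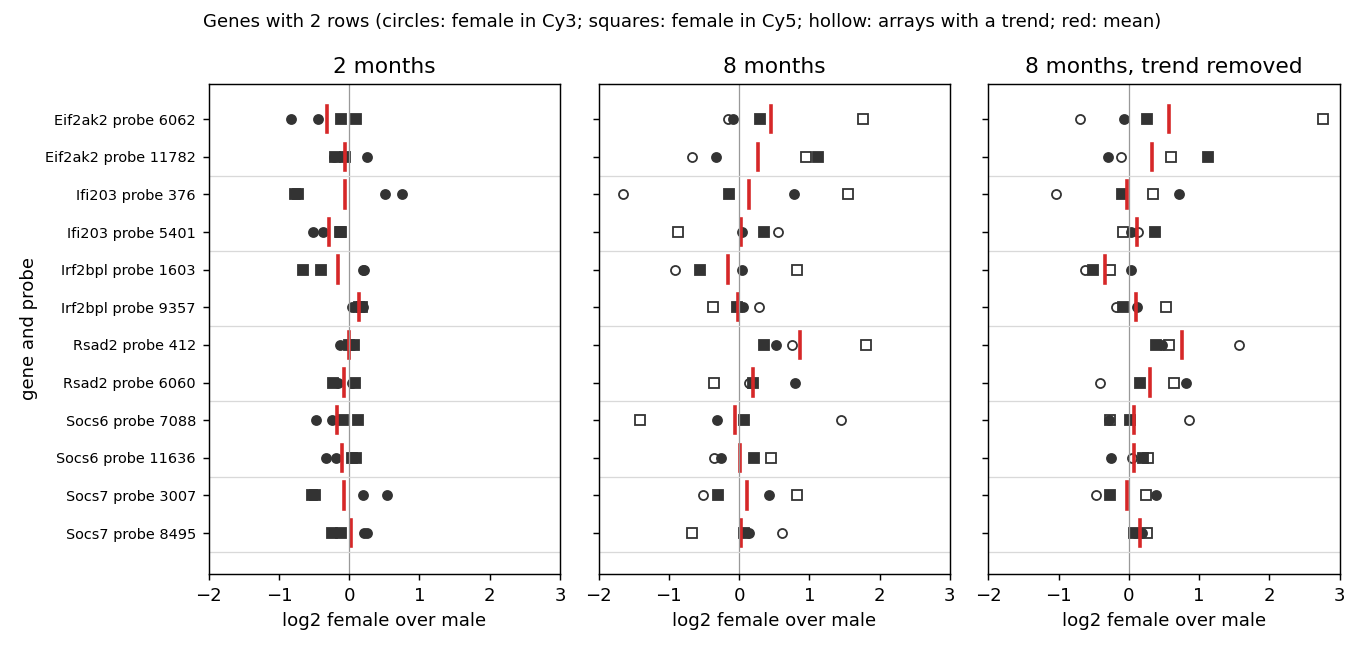
Log2 female over male on every array for the 6 genes with 2 probes, at 2 months, at 8 months as deposited, and at 8 months after the drift along the probe order was removed, with the mean in red. The Rsad2 probes lie at 0.86 and 0.20 as deposited and at 0.75 and 0.30 without the drift.

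The remaining type I genes had smaller or less even ratios. Usp18, the protease that removes Isg15 from proteins and also blocks the type I receptor, ranged from -0.25 to 0.18 at 2 months and from 0.20 to 1.03 at 8 months. Ifit1 and Ifit2, which bind foreign RNA, had means of -0.020 and -0.055 at 2 months and of 0.38 and 0.23 at 8 months (0.30 and 0.070 from replicates 3 and 4). Ifit2 was negative on every array of 2 months (-0.11 to -0.00069) and positive on every array of 8 months (0.027 to 0.66). Oasl2, a relative of the Oas enzymes, was negative on all arrays at 2 months (-0.29 to -0.14) and read 0.24 and 0.54 on replicates 3 and 4 at 8 months, against 0.94 and -1.22 on the drifting arrays. Isg15, a ubiquitin-like protein that is attached to other proteins, was likewise negative on all arrays at 2 months, at -0.42 ± 0.28, and had both signs at 8 months, at 0.055 ± 0.61, or 0.19 from replicates 3 and 4. Oas1f lacked values on too many arrays to be tested.

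**Figure D4:**
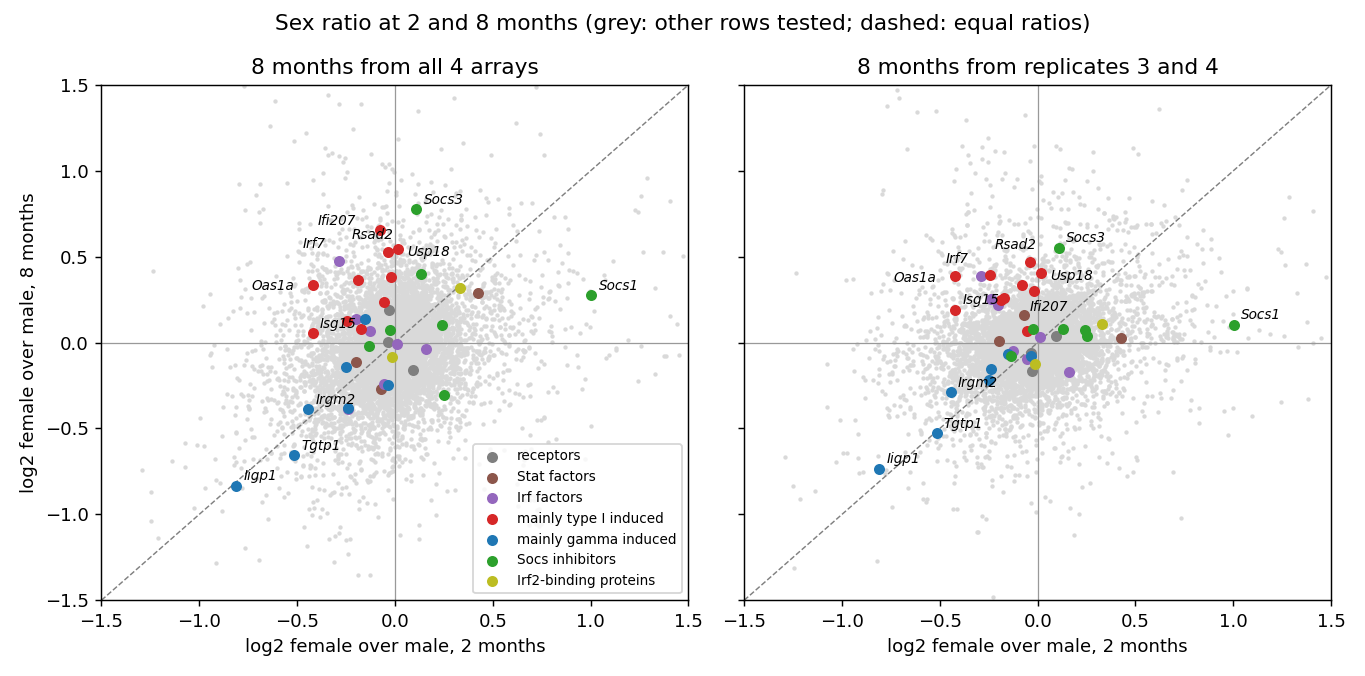
Log2 female over male at 8 months against that at 2 months, with the value of 8 months from all arrays (left) or from replicates 3 and 4 (right); colours give the role, grey points are other tested rows, and 66 and 68 rows beyond 1.5 are not drawn. Type I genes (red) lie above the dashed line of equal ratios in both panels, and Iigp1, Tgtp1 and Irgm2 lie near it at the lower left.

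Genes induced mainly by interferon gamma were mostly lower in the female pool at both ages. All 7 had a negative mean at 2 months, against 53.6% of all rows, with a median of -0.25, against -0.016 for all rows. On all arrays of that age 5 of 7 were negative, against 18.1% of all rows. Irgm1 instead followed the dye, with a mean of -0.035, and Gbp7 was at -0.54 with the female pool in Cy3 and 0.043 in Cy5. At 8 months 6 of 7 means were negative, against 55% of all rows, with a median of -0.38. From replicates 3 and 4 all 7 means were, against 50.4%, with a median of -0.22. A negative mean at both ages was found in 6 of 7, against 33% of all rows, and with replicates 3 and 4 in 7 of 7, against 30.7%. The limits given for the type I counts hold here too: the genes are not independent, and each age has 1 pair of pools. Markers of several cell types lay mostly on the same side of 0 at 2 months, and those of fewer types did so at 8 months. Of the endothelial markers 4 of 6 tested were negative at 2 months (median -0.32, from -0.51 to 0.054) and 6 of 6 at 8 months (median -0.46, from -0.69 to -0.19, and -0.29 from replicates 3 and 4). Fibroblast markers were negative in 4 of 4 at 2 months and 3 of 4 at 8 months (medians -0.15 and -0.032, and -0.019 from replicates 3 and 4). B cell markers were negative in 4 of 4 and 2 of 4 (medians -0.27 and -0.064, and 0.070 from replicates 3 and 4). They ranged from -0.21 to 2.61 at 8 months, where Jchain was the highest and met the size rule (2.66 from replicates 3 and 4). The macrophage markers given above were also negative at 2 months. Of the heart muscle markers 5 of 8 were negative at 2 months and 6 of 8 at 8 months. Of all rows 53.6% and 55% were negative at these ages, so counts such as 4 of 6 or 5 of 8 are near the share of all rows. Other cell types lay above 0 at 1 or both ages. T cell and thymocyte markers had medians of 2.35 at 2 months and 0.11 at 8 months (0.28 from replicates 3 and 4). The 1 tested NK cell marker, Gzma, was at 0.91 and 0.41 (0.21 from replicates 3 and 4). Neutrophil markers had medians of -0.14 and 0.42 (0.43 from replicates 3 and 4), with ranges from -0.25 to 2.01 and from 0.13 to 0.77. Ltf was the highest of them at both ages and met the size rule at each. The part of all these cell types in the gamma genes was not tested. None of the gamma genes was called over both ages, where the limma adjusted p-values ran from 0.193 to 0.996.

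Iigp1, a GTPase that disrupts the vacuoles of intracellular parasites, had the lowest ratio of all members. It read -0.78, -0.81, -0.64 and -1.01 at 2 months and 0.31, -2.17, -0.79 and -0.68 at 8 months. It was negative on 7 of 8 arrays, all but replicate 1 at 8 months. Its means were -0.81 ± 0.15 at 2 months, -0.83 ± 1.02 at 8 months (SD, n = 4 arrays) and -0.73 from replicates 3 and 4, which is 1.75-fold and 1.78-fold lower in the female pool at 2 and 8 months. Over both ages it was at -0.82 (SE 0.12, limma adjusted p = 0.193). Without replicate 1 of 8 months it was at -0.96 and passed the test (limma adjusted p = 0.00283), and without replicate 4 of 8 months at -1.01 (limma adjusted p = 0.00448), settings in which 100 and 104 rows were called in all. Both settings kept the drifting replicate 2, where Iigp1 read -2.17 and the running median of the drift was -1.11. With the drift removed, and from replicates 3 and 4, Iigp1 was not called. From replicates 3 and 4 it was the 1 member that met the size rule at 8 months, a rule that then took 3.33% of rows.

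Tgtp1, a GTPase first found in T cells, read -0.51, -0.33, -0.79 and -0.43 at 2 months and 0.40, -1.97, -0.69 and -0.37 at 8 months. It shared with Iigp1 a positive value on replicate 1 of 8 months, its lowest value on replicate 2 and negative values elsewhere. Their probes, 7602 and 7621, lie close together in the probe order, and the running median of the drift there was 0.62 and 0.59 on replicate 1 and -1.12 and -1.11 on replicate 2. With the drift removed, both genes were negative on all arrays of 8 months, at -0.22 and -0.28 on replicate 1. From replicates 3 and 4 Tgtp1 was at -0.53. Over both ages it was at -0.59 (SE 0.13, limma adjusted p = 0.287), and without replicate 1 of 8 months at -0.72 (limma adjusted p = 0.0401). That setting kept the drifting replicate 2, and Tgtp1 was not called with the drift removed or from replicates 3 and 4. Tgtp1 has a nearly identical neighbour, Tgtp2, so its spot may report both. Irgm2, which controls the other GTPases of the family, read -0.56, -0.41, -0.43 and -0.37 at 2 months and 0.43, -1.41, -0.27 and -0.31 at 8 months, again negative on all arrays except replicate 1 of 8 months. Its value over both ages was -0.42 (SE 0.12, limma adjusted p = 0.367), and replicates 3 and 4 of 8 months gave -0.29. Gbp2, a guanylate-binding protein that coats pathogen vacuoles, was the 1 member with the same sign on all 8 arrays, a property of 3.37% of all rows. Its ratios ran from -0.43 to -0.054 at 2 months and from -0.99 to -0.061 at 8 months, and it was at -0.31 (SE 0.13, limma adjusted p = 0.48) over both ages, with -0.38 at 8 months from all arrays and -0.15 from replicates 3 and 4. Gbp7, Igtp and Irgm1 had age means between -0.25 and 0.14.

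**Figure D5:**
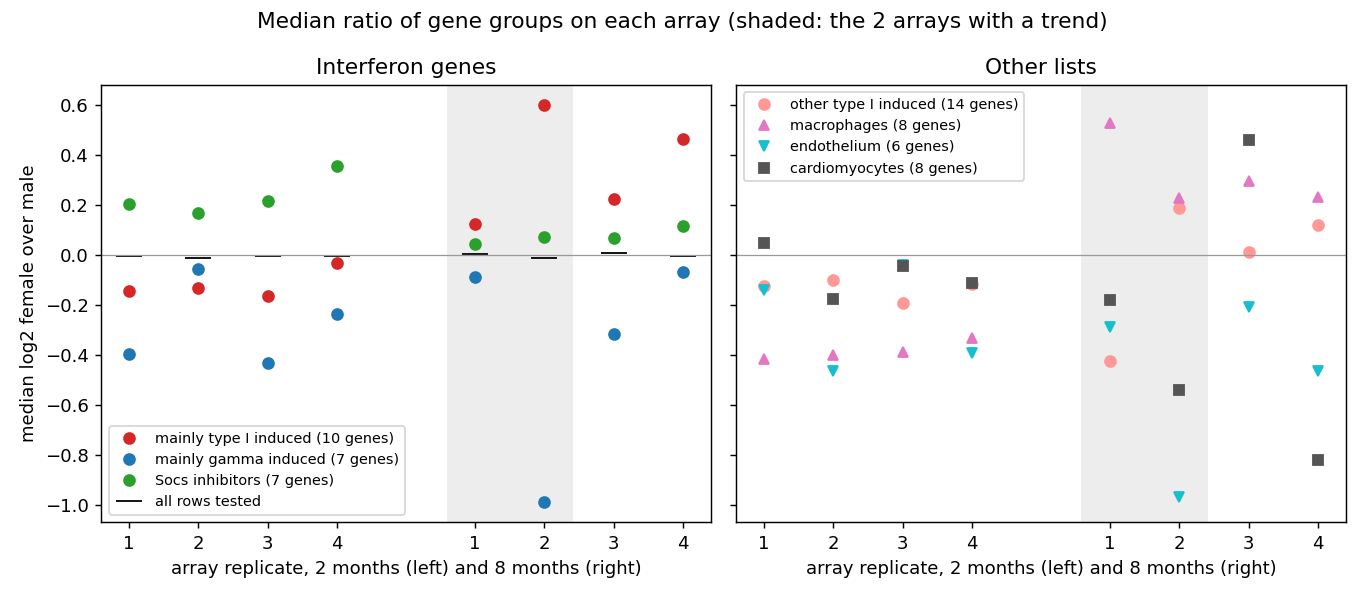
Median log2 female over male on each array for groups of interferon genes and all rows tested (left) and for other gene lists (right), with the 2 drifting arrays shaded. The gamma median lies below 0 on all 8 arrays, and the type I median lies below 0 on the 4 arrays of 2 months and above it on those of 8 months.

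Of the Socs inhibitors 2 of 7 were negative at 2 months and 2 of 7 at 8 months, against 53.6% and 55% of all rows. Their medians were 0.13 and 0.10 (0.080 from replicates 3 and 4). Socs1, which blocks Jak kinases and is the main brake on interferon gamma, read 1.16, 0.97, 1.31 and 0.58 at 2 months and -0.088, 0.98, 0.23 and -0.017 at 8 months. It was positive on every array of 2 months and of both signs at 8 months. Its mean was 1.00 ± 0.32 at 2 months (SD, n = 4 arrays), which is 2.01-fold higher in the female pool, and 0.28 ± 0.49 at 8 months, or 0.10 from replicates 3 and 4, with an overlap through replicate 2 of 8 months. Over both ages it was at 0.64 (SE 0.19, limma adjusted p = 0.377). Markers of T cells and thymocytes were high in the same pool: 8 of 9 tested were higher in females by the size rule at 2 months, with a median of 2.35 and a range from -0.24 to 4.48, while at 8 months the median was 0.11 (0.28 from replicates 3 and 4). Developing T cells express Socs1, and their part in its ratio was not tested. Socs3, the brake on interleukin 6 signalling, read 0.28, -0.16, 0.50 and -0.18 at 2 months, where it followed the dye, and 0.41, 1.59, 0.78 and 0.33 at 8 months, all positive. Its mean at 8 months was 0.78 ± 0.58, or 1.71-fold higher in the female pool, and 0.55 from replicates 3 and 4. Over both ages it was at 0.44 (SE 0.18, limma adjusted p = 0.49).

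Socs6 and Socs7, which act mainly on receptor tyrosine kinase and insulin signalling, had 2 probes each. Socs6 gave -0.25, -0.084, -0.47 and 0.12 at 2 months and 1.45, -1.41, -0.32 and 0.064 at 8 months on probe 7088. On probe 11636 it gave -0.19, 0.090, -0.33 and 0.043 at 2 months and -0.35, 0.46, -0.26 and 0.21 at 8 months. The Socs6 probes were thus of opposite sign on the drifting arrays and close together on the others. Socs7 gave 0.20, -0.49, 0.54 and -0.54 at 2 months and -0.52, 0.82, 0.42 and -0.29 at 8 months on probe 3007. On probe 8495 it gave 0.21, -0.12, 0.26 and -0.25 at 2 months and 0.61, -0.68, 0.14 and 0.066 at 8 months. None of these probes kept 1 sign at either age, and the drift had opposite signs at the probes of a gene on replicates 1 and 2 of 8 months. The gene means lay between -0.13 and 0.071 at both ages. Socs2, the inhibitor of growth hormone signalling, had means of 0.25 ± 0.070 and -0.30 ± 0.40, and its arrays did not overlap between the ages, but replicates 3 and 4 gave 0.041. Socs4 and Socs5 had positive means at both ages, from 0.10 to 0.40, and were at 0.080 and 0.071 on replicates 3 and 4 of 8 months.

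Irf2bp2 and Irf2bpl meet the naming rule but are transcriptional regulators outside the interferon response proper. Irf2bp2 read 0.47, 0.14, 0.56 and 0.16 at 2 months and 0.052, 1.00, 0.57 and -0.36 at 8 months, positive on all arrays at 2 months, and was at 0.32 (SE 0.12, limma adjusted p = 0.458) over both ages. Irf2bpl gave 0.20, -0.66, 0.20 and -0.41 at 2 months and -0.91, 0.82, 0.042 and -0.56 at 8 months on probe 1603. On probe 9357 it gave 0.20, 0.18, 0.044 and 0.14 at 2 months and 0.28, -0.38, 0.059 and -0.035 at 8 months. The probes of Irf2bpl differed in sign at 2 months, and the gene was at -0.049 (SE 0.12, limma adjusted p = 0.94) over both ages. Ifngas1, the antisense RNA, had no value on 2 arrays of 8 months and was not tested. The sequence of its probe was not available, so it is unknown whether the spot also detects other RNA.

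Other genes of the pathway were read from lists. Of 14 tested further type I genes, 12 were negative at 2 months and 5 at 8 months, against 53.6% and 55% of all rows. Their medians were -0.16 and 0.071, and 0.065 from replicates 3 and 4. None was called, and none met the size rule at either age. Samhd1, which depletes nucleotides, was at -0.38 over both ages, the nuclear body protein Pml at -0.32 and Tor3a at -0.17. Their 8-month values of -0.49, -0.47 and -0.28 rested on the drifting arrays, since replicates 3 and 4 gave -0.044, -0.020 and 0.048. Of 15 tested genes for antigen processing and chemokines that respond to interferon gamma, 12 were negative at 2 months and 10 at 8 months. The shares of all rows were again 53.6% and 55%. The medians of these genes were -0.20 and -0.15, and 0 were called. From replicates 3 and 4 their 8-month median was -0.029, with 8 of 14 negative, against 50.4% of all rows. The class II chain H2-Aa was at -0.50 ± 0.17 at 2 months and -0.49 ± 0.40 at 8 months, and the class II chaperone Cd74 at -0.31 ± 0.23 and -0.63 ± 0.65 (SD, n = 4 arrays). At 8 months both rested on the drifting arrays, with -0.15 for H2-Aa and -0.075 for Cd74 from replicates 3 and 4. Cxcl10, a chemokine induced by both kinds of interferon, went the other way: it was positive on all 8 arrays, at 0.44 ± 0.082 at 2 months and 0.89 ± 0.78 at 8 months (SD, n = 4 arrays), and it met the size rule at 8 months. From replicates 3 and 4 it was at 0.66.

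Beside the Stat factors, 8 genes for a kinase, phosphatases, Pias proteins and a receptor chain were tested. Their medians were 0.00066 at 2 months and -0.11 at 8 months (-0.048 from replicates 3 and 4), with 0 called. The kinase Tyk2 was at -0.23 over both ages, the phosphatase Ptpn11 at -0.34, and Pias3, an inhibitor of Stat3, at -0.34. The value of Pias3 rested on the drifting arrays (-1.38 and -1.11), since it read -0.037 at 2 months and -0.055 on replicates 3 and 4 of 8 months. Ptpn11 followed the dye at 2 months, at 0.21, -0.51, 0.73 and -0.98. Tyk2 was at -0.31 at 8 months, or -0.15 from replicates 3 and 4. Of 5 tested genes that sense nucleic acids, 0 were called. Ikbke, a kinase that activates Irf3 and Irf7, had the highest value among them: its ratios were 0.81, 0.63, 0.67 and 0.70 at 2 months and -0.043, 1.83, 0.79 and 0.66 at 8 months. It was positive on all but the drifting replicate 1 of 8 months, with means of 0.70 and 0.81 (0.73 from replicates 3 and 4), and at 0.76 (SE 0.13, limma adjusted p = 0.193) over both ages. Trim25 and Ddx58, which act in RNA sensing, were at -0.19 and -0.12.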

How the data were processed

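Per the labels, 8 two-colour arrays compared pooled heart RNA of 6 females with that of 6 males, 4 arrays at each age, and images were read with Feature Extraction version 7.1.1, per the submitters' processing notes. The deposited values were log10 ratios of Cy5 over Cy3 with a median of 0 in each column, limited at 2 and -2 (100-fold). What else the authors did to normalize them is not stated in those notes. An exact 0 (6.38 to 13.9% of the values of an array) was treated as no measurement. The ratios were put on a log2 scale with the female pool as numerator. Of 9607 rows, 6675 had 1 gene symbol (6604 matched to RefSeq, 71 with the platform's symbol), 396 had several and 2536 none. Rows of a gene were averaged.

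A row was tested with values on at least 3 arrays of each age in both dye orientations, which left 7812 rows and 39 members. The value of an age was the mean of the dye orientations. The arrays of an age were counted as 1 replicate because they share their pools, and no label says that the pools were repeated. limma version 3.58.1 in R version 4.3.3 tested the 2 age values against 0 (two-sided, Benjamini-Hochberg over all rows, called below 0.05). The same fit was run on simulated arrays with reduced array noise, no drift and the same change at both ages. That run therefore does not cover the drifting arrays or ratios that differ between the ages. At 1 age, and for the difference of the ages, rows were selected by size: a ratio of 1.5-fold or more whose arrays all had the same sign, or, for the difference, whose arrays did not overlap between the ages. The number of arrays limits the precision.

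The members, the gene lists and the tests were chosen with earlier results of these data known. Values on every array are given for members that met the size rule or had 2 rows, and for up to 3 members of each role with the largest value over both ages; from each other list up to 3 genes are named by the same measure. Members singled out beside these (Gbp2, Ifit1, Ifit2, Usp18, Oasl2, Isg15, Irf9 and Socs2) were chosen after their values were seen. Counts of negative or positive means by role were not planned in advance. Alternatives left out arrays, kept exact zeros, took plain means, scaled the arrays, removed the drift, used replicates 3 and 4 at 8 months, dropped the filter, moved the 1.5-fold limit, took single probes and fitted single arrays.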

Additional observations from a re-analysis of the deposited data

Results flagged for a closer look

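Ifit2 and Oas1a were negative on all 4 arrays at 2 months and positive on all 4 at 8 months. For Ifit2 the values at 2 months were close to 0, with a mean of -0.055. The ratio of Ifit2 was 0.29 higher at 8 months and that of Oas1a 0.76 higher. The difference was not tested, because each age has 1 pair of pools.

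In 4 of 77 groups of 4 arrays 1 array lay far from the others, and chance alone flags about 1 in 20 groups. Igtp at 8 months read 0.78 on replicate 2, against -0.089 to -0.063 on the others. Socs4 at 8 months read 1.47 on replicate 2, against -0.044 to 0.20. Both are values of an array with the drift along the probe order. At 2 months Oasl2 read -0.14 on replicate 2, against -0.29 to -0.27, and Socs2 read 0.36 on replicate 4, against 0.22 on each of the others.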

How the results depend on the processing

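Over the named genes, 783 values under the alternatives counted as unchanged, 26 as moved without a call, and 3 became called. A value of 1 age was unchanged when it moved by less than the SD of its arrays, even if it left the size rule. A value over both ages was unchanged when it kept its sign without a call, and moved when it changed sign without a call. Interferon genes called over both ages stayed at 0, except for Iigp1 and Tgtp1 without replicate 1 of 8 months and Iigp1 without replicate 4 of 8 months (0 to 2 over single arrays left out). All rows called numbered 7, against 0 with exact zeros kept, 3 with arrays scaled to 1 spread, 4 with the drift removed, 1 from replicates 3 and 4, 4 with no filter and 4 to 104 with single arrays left out. By the size rule, 2 members at 2 months became 6 at 1.3-fold, 1 at 2-fold and 2 to 3 with arrays left out. The 2 members at 8 months were Iigp1 and Socs3 in place of Ifi207 and Socs3 with the drift removed, and became 0 with scaled arrays, 1 from replicates 3 and 4, 6 at 1.3-fold, 0 at 2-fold and 1 to 5 with arrays left out. The 2 members of the age difference became 4 with the drift removed, 4 from replicates 3 and 4, 5 at 1.3-fold, 0 at 2-fold and 3 to 5 with arrays left out. The cause of these changes was not tested beyond the fold limits themselves. With arrays left out, 7 to 10 of 10 type I genes were negative at 2 months, 8 to 9 positive at 8 months and 9 to 10 higher at 8 months, and 6 to 7 of 7 gamma genes were negative at each age. limma fits over single arrays of 8 against 2 months, which measure technical spread, called 0 members (31 rows in all) with no replicate block and 0 members (19 rows) with the replicate block. Replicate numbers pair no animals, because each age has its own pools, but arrays of the same number share a dye orientation. As deviations from the mean of their age, these arrays correlated between the ages at -0.16, -0.10, 0.54 and 0.55.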
